A study of Mus musculus with 4 samples.

Results

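*Nkx2-3*, *Nkx2-5*, *Nkx2-6*, *Gata4*, *Gata5*, *Gata6*, *Hand1*, *Mef2c* and *Smyd1* encode regulators of heart and visceral mesoderm, the layer that forms the heart and the muscular wall of the gut tube. They were taken by name, and the 9 genes are among the 46983 genes listed for 4 RNA-seq libraries of mouse larynx, where each was abundant enough to be tested with the 16972 genes that had a mean of at least 1 TPM (a level scaled for transcript length and to the same total in every library). Each library held 3 pooled larynxes of E10.5 embryos with 32 to 35 somites, and the question was how the tissue changes without sonic hedgehog (SHH), the ligand that foregut epithelium sends to the mesenchyme around it. The 2 mutant pools carried the *Shh* null allele Shhtm1amc, kept on a Swiss Webster background, and the 2 control pools were Swiss Webster WT embryos. The series calls the mutants Shh-/-, which is used here, whereas the genotype field of those pools reads Shh+/-. The allele is constitutive, so the loss is not limited to 1 cell type, and the tissue was sequenced whole. Nothing in the labels says which litters the embryos came from, so the p-values measure the spread between pools alone.

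The NK2 homeobox, GATA zinc finger, HAND and MEF2 proteins work as a network in heart precursors, where they bind the control regions of muscle genes and of one another. Several of them have a second site of expression in the pharynx and gut: NKX2-3 and NKX2-6 mark pharyngeal endoderm and gut mesoderm, and the GATA factors are found in endoderm and in the mesoderm next to it. HH signals from the foregut reach the splanchnic mesoderm and the second heart field, a pool of heart precursors that lies beside the pharynx, so the E10.5 larynx lies close to the cells in which these factors act.

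The libraries held 18.3 M (Shh-/- pool 1) to 41.7 M aligned reads (Shh-/- pool 2), derived from the ratio of coverage to FPKM and a read length of 75 nt read off the coverage of low genes. *Shh* itself stood at 10.4 and 10.8 TPM in mutant larynx versus 23.7 and 42.1 TPM in WT (log2 difference −1.49, standard error 0.28, limma adjusted p = 0.0895), a gene-level value that does not separate the deleted part of the gene from the rest. The HH target genes *Gli1*, *Ptch1* and *Hhip* were lower in Shh-/-, and *Ptch1* and *Hhip* passed the test. The epithelial genes *Foxa2* (5.34 and 9.12 TPM in Shh-/-, 29.2 and 39.8 TPM in WT) and *Nkx2-1* were present in every pool. Pools also differed within a genotype. Of 5 liver and gut endoderm genes, *Afp* was at 2358 TPM in WT pool 4 and 17.4 TPM in WT pool 6, against 1.01 and 0.876 TPM in Shh-/-. *Ttr*, at 112.3 and 2.19 TPM in those WT pools, and *Hnf4a*, at 4.21 and 0.15 TPM, had the same order, and the summed level of this list was 2475 TPM in WT pool 4 and 19.7 TPM in WT pool 6. *Cdx2* was listed at 0 in all 4, and of the 3 genes tested none passed. In the Shh-/- pools, the foregut mesoderm gene *Foxf1* was at 0.848 and 9.57 TPM and *Aldh1a2*, which makes retinoic acid, at 8.52 and 52.6 TPM. Without WT pool 4 all 9 genes kept the sign of their log2 difference, which was then −1.21 for *Nkx2-5*, 2.60 for *Nkx2-6*, −1.26 for *Hand1* and −0.56 for *Smyd1*, with none past the threshold.

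None of the 9 genes passed an adjusted p of 0.05 in limma, a linear model that shares the estimate of spread between genes, and 6 had an unadjusted p under 0.05. Over all tested genes 0.725% passed (0.56% in the higher and 0.165% in the lower direction), and 24.8% were below 0.05 before adjustment. At an adjusted p of 0.10, 3 of the 9 passed (*Hand1* and *Nkx2-5*, lower in Shh-/-, and *Nkx2-6*, higher), where 5.06% of all tested genes did (3.95% higher and 1.11% lower). The genotypes did not overlap for 7 of the 9, 3 of them higher in the mutant and 4 lower, against 60.7% of all tested genes (38% higher and 22.7% lower), so this count is close to the background. The median log2 difference of the 9 was −0.22, with 4 genes above 0 and 5 below, and that of all tested genes was 0.08. Log2 differences are Shh-/- minus WT of log2(TPM + 1), which understates the change of low genes. In whole tissue, fewer cells of a type and less RNA per cell cannot be told apart.

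**Figure D1:**
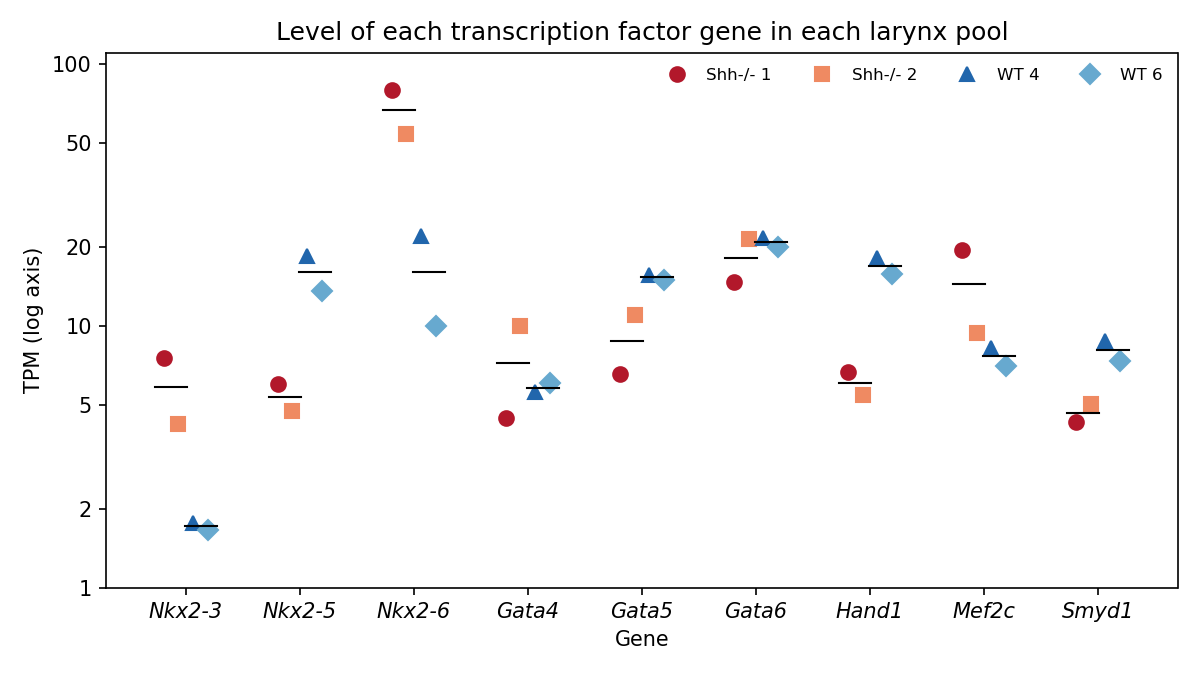
TPM of the 9 genes on a log axis in each pool (red circle and orange square, Shh-/- pools 1 and 2; blue triangle and light blue diamond, WT pools 4 and 6), with black bars at the mean of the 2 pools of a genotype. *Nkx2-5*, *Gata5*, *Hand1* and *Smyd1* have both Shh-/- pools below both WT pools, *Nkx2-3*, *Nkx2-6* and *Mef2c* have them above, and the pools of *Gata4* and *Gata6* overlap.

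The 3 NK2 homeobox genes did not share a direction. *Nkx2-5* (ENSMUSG00000015579.4, mm10 chromosome 17, 26838664 to 26841565, minus strand), the cardiac homeobox gene, was at 5.97 and 4.73 TPM in mutant larynx versus 18.5 and 13.6 TPM in WT. Both mutant pools were below both WT pools, and the higher mutant value was under the lower WT value by more than the mutant pools differed from each other. The means were 5.35 ± 0.873 and 16.0 ± 3.45 TPM (SD, n = 2 pools each), with a log2 difference of −1.42 (standard error 0.22, limma adjusted p = 0.0697).

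*Nkx2-6* (ENSMUSG00000044186.10, chromosome 14, 69171802 to 69175518, plus strand), expressed in caudal pharyngeal endoderm and the outflow region of the heart, was at 79.2 and 54.0 TPM in mutant larynx versus 22.0 and 9.97 TPM in WT. The mutant pools were again clear of the WT pools, in the other direction, while the WT pools differed from each other by more than those of any other of the 9 genes. The means were 66.6 ± 17.8 and 16.0 ± 8.53 TPM (SD, n = 2 each), with a log2 difference of 2.06 (standard error 0.40, limma adjusted p = 0.0918). It was the largest difference of the 9 and the one with the widest 95% interval, 1.04 to 3.09.

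*Nkx2-3* (ENSMUSG00000044220.13, chromosome 19, 43612325 to 43615892, plus strand), which acts in pharyngeal and gut development, was the lowest of the 9 in WT. It was at 7.50 and 4.197 TPM in mutant larynx versus 1.77 and 1.66 TPM in WT, with no overlap (log2 difference 1.29, standard error 0.29, limma adjusted p = 0.107). GENCODE lists 1 transcript each for *Nkx2-3*, *Nkx2-6* and *Gata5*, so coverage could be turned into reads. *Nkx2-3* rested on about 139 and 184 mutant reads versus 71 and 69 WT reads, *Nkx2-6* on 788 and 1271 against 474 and 224. Unlike TPM, these reads are not scaled for library size, which was smallest in Shh-/- pool 1 (18.3 M). For both genes the order of the mutant pools in reads is therefore the reverse of that in TPM.

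Within a pool, the level of 1 gene over that of another does not depend on how the library was scaled. *Nkx2-6* was at 13.3 and 11.4 times the level of *Nkx2-5* in the Shh-/- pools and at 1.19 and 0.733 times in WT. *Nkx2-3* was at 1.26 and 0.887 times the level of *Nkx2-5* in Shh-/- and at 0.0956 and 0.122 times in WT. Both ratios were thus higher in each Shh-/- pool than in either WT pool. This follows from the levels of these genes given above and adds no separate evidence. An exact two-sided permutation test on 2 and 2 pools has 0.333 as its smallest p. *Pax1* and *Pax9*, markers of pharyngeal pouch endoderm, where *Nkx2-3* and *Nkx2-6* are also expressed, had the highest log2 differences of the epithelial list, and neither passed. *Pax1* was at 30.1 and 9.67 TPM in Shh-/- and 1.08 and 0.4 TPM in WT (log2 difference 3.41, standard error 0.55, limma adjusted p = 0.0736), and *Pax9* at 12.5 and 7.38 against 6.13 and 3.97 TPM (log2 difference 0.84, standard error 0.32, limma adjusted p = 0.194). In the whole list of 12 foregut and pharyngeal epithelium genes 6 were higher and 6 lower, none passed, and the summed level was 549.6 and 457.5 TPM in Shh-/- and 473.8 and 497.3 TPM in WT. Their part in the NK2 values was not tested.

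The GATA genes differed less. *Gata5* (ENSMUSG00000015627.5, chromosome 2, 180325133 to 180334699, minus strand), which encodes a factor of endocardial and endoderm development, was at 6.52 and 11.03 TPM in mutant larynx versus 15.7 and 15.0 TPM in WT. Both mutant pools were below WT, but the mutant pools also differed from each other (log2 difference −0.78, standard error 0.26, limma adjusted p = 0.164). Its values rested on about 187 and 750 reads in Shh-/- and 974 and 971 in WT, again not scaled for library size. *Gata6* (ENSMUSG00000005836.8, chromosome 18, 11052510 to 11085635, plus strand), expressed in heart, gut mesoderm and endoderm, was at 14.7 and 21.5 TPM in mutant larynx versus 21.7 and 19.99 TPM in WT. The second mutant pool lay between the WT pools, and the log2 difference was −0.22 with a 95% interval of −0.75 to 0.32 (limma adjusted p = 0.535). It was 0.041 without Shh-/- pool 1.

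*Gata4* (ENSMUSG00000021944.15, chromosome 14, 63198922 to 63271692, minus strand), a core factor of heart muscle and of the mesothelium, was at 4.46 and 9.95 TPM in mutant larynx versus 5.56 and 6.03 TPM in WT. The mutant pools lay on either side of both WT pools. The log2 difference was 0.19 with a 95% interval of −0.74 to 1.11 (limma adjusted p = 0.762), which spans 0. It became 0.69 without Shh-/- pool 1 and −0.32 without Shh-/- pool 2. The second Shh-/- pool was also the higher of the pair for *Upk3b*, a mesothelium gene (8.20 and 18.9 TPM, against 10.47 and 8.41 TPM in WT), for *Wt1*, an epicardial factor (8.62 and 13.3 TPM, against 4.94 and 7.71 TPM), and for *Aldh1a2*. Of the 6 epicardium genes 5 were tested, 4 of them higher and 1 lower with none past the threshold, and the summed level was 30.6 and 102.8 TPM in Shh-/- and 121.7 and 102.6 TPM in WT. Most of the WT sum was *Aldh1a2*, the 1 gene that was lower (8.52 and 52.6 TPM in Shh-/-, 99.2 and 80.7 TPM in WT). The sum therefore does not stand for the other genes of the list. The part of mesothelium and epicardium in the *Gata4* values was not tested. *Gata5* was at 0.442 and 0.514 times the level of *Gata6* in the Shh-/- pools and at 0.721 and 0.749 times in WT, while *Gata4* over *Gata6* (0.303 and 0.463 against 0.256 and 0.301) was nearly equal in the lower mutant and the higher WT pool.

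*Hand1* (ENSMUSG00000037335.13, chromosome 11, 57828705 to 57832818, minus strand), a bHLH factor of lateral mesoderm and the left ventricle, had the lowest p of the 9. It was at 6.67 and 5.42 TPM in mutant larynx versus 18.1 and 15.8 TPM in WT. The 2 pools of each genotype were close to each other and far from the other genotype. The means were 6.04 ± 0.887 and 16.9 ± 1.63 TPM (SD, n = 2 each), with a log2 difference of −1.35 (standard error 0.17, limma adjusted p = 0.0595). *Hand1* and *Nkx2-5* were the only 2 of the 9 to pass 0.05 under any of the settings run: with the pools centred on their medians, which shifted the median over all tested genes from 0.08 to −0.05, *Hand1* had a log2 difference of −1.48 (limma adjusted p = 0.0341, range over the alternatives 0.0341 to 0.210) and *Nkx2-5* one of −1.54 (limma adjusted p = 0.0496, range 0.0496 to 0.189). *Hand1* also passed after quantile normalization and after a correction for GC content and transcript length.

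*Smyd1* (ENSMUSG00000055027.17, chromosome 6, 71213940 to 71322233, minus strand), a methyltransferase of striated muscle that regulates *Hand2* in the heart, was at 4.29 and 5.02 TPM in mutant larynx versus 8.76 and 7.33 TPM in WT. The pools did not overlap, and the difference was the smallest of the 4 genes for which both mutant pools were lower (log2 difference −0.68, standard error 0.18, limma adjusted p = 0.134). The RefSeq start used for its promoter lies inside the interval listed here, which also spans *Krcc1* on the other strand, which was at 49.8 and 50.2 TPM in Shh-/- and 51.8 and 59.5 TPM in WT. Since the kit keeps the strand but the setting used for assembly is not given in the sources used here, the *Smyd1* values are uncertain to that extent. *Mef2c* (ENSMUSG00000005583.16, chromosome 13, 83504034 to 83667080, plus strand) encodes a MADS-box factor of heart, skeletal muscle, endothelium and neurons. It was at 19.5 and 9.37 TPM in mutant larynx versus 8.23 and 7.05 TPM in WT. The second mutant pool was just above the WT pools and the first was well clear of them, so that the log2 difference of 0.76 (standard error 0.35, limma adjusted p = 0.251) became 0.27 without the first Shh-/- pool and was up to 1.25 with another pool left out.

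Ordered by mean TPM, WT larynx had *Gata6* first (20.8 TPM), clear of *Hand1*, and then *Hand1*, *Nkx2-5*, *Nkx2-6* and *Gata5* between 16.9 and 15.3 TPM, where each gene's pools overlapped those of the next. *Smyd1* and *Mef2c* followed at 8.05 and 7.64 TPM, also overlapping, then *Gata4* at 5.79 TPM and *Nkx2-3* at 1.71 TPM, each clear of the gene before. In Shh-/- larynx *Nkx2-6* was first, clear of *Gata6* at 18.1 TPM, and *Mef2c* came next. The other 6 genes lay between 8.77 (*Gata5*) and 4.65 TPM (*Smyd1*), with every neighbouring pair overlapping.

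The members of the same families that are not among the 9 help to place these values. Of 15 paralogs 11 were tested, 6 above and 5 below WT in the mutant (median log2 difference 0.11, which was −0.01 after median centring and −0.04 after quantile normalization), and none passed 0.05. *Hand2*, the sister gene of *Hand1*, differed in the other direction (82.4 and 55.2 TPM in Shh-/-, 40.8 and 35.4 TPM in WT; log2 difference 0.81, standard error 0.22, limma adjusted p = 0.131). *Hand1* was accordingly at 0.0809 and 0.0981 times the level of *Hand2* in the Shh-/- pools and at 0.443 and 0.446 times in WT. Among the NK2 genes, *Nkx2-1*, the factor of thyroid, lung and tracheal endoderm, was at 6.16 and 3.61 TPM against 15.9 and 17.9 TPM in WT (log2 difference −1.64, limma adjusted p = 0.0715), while *Nkx2-2*, *Nkx2-4* and *Nkx2-9* stayed under 1 TPM in every pool and *Nkx2-4* was listed at 0. *Gata1* and *Gata3* overlapped between genotypes, and *Gata2*, a blood and endothelial factor, was at 7.44 and 5.78 TPM against 4.35 and 3.35 TPM (log2 difference 0.65, limma adjusted p = 0.166). *Mef2a* overlapped (95% interval −0.44 to 0.24). Of the SMYD genes, *Smyd5* was the most different, at 27.0 and 25.6 TPM against 53.5 and 47.7 TPM (log2 difference −0.92, limma adjusted p = 0.0595).

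**Figure D2:**
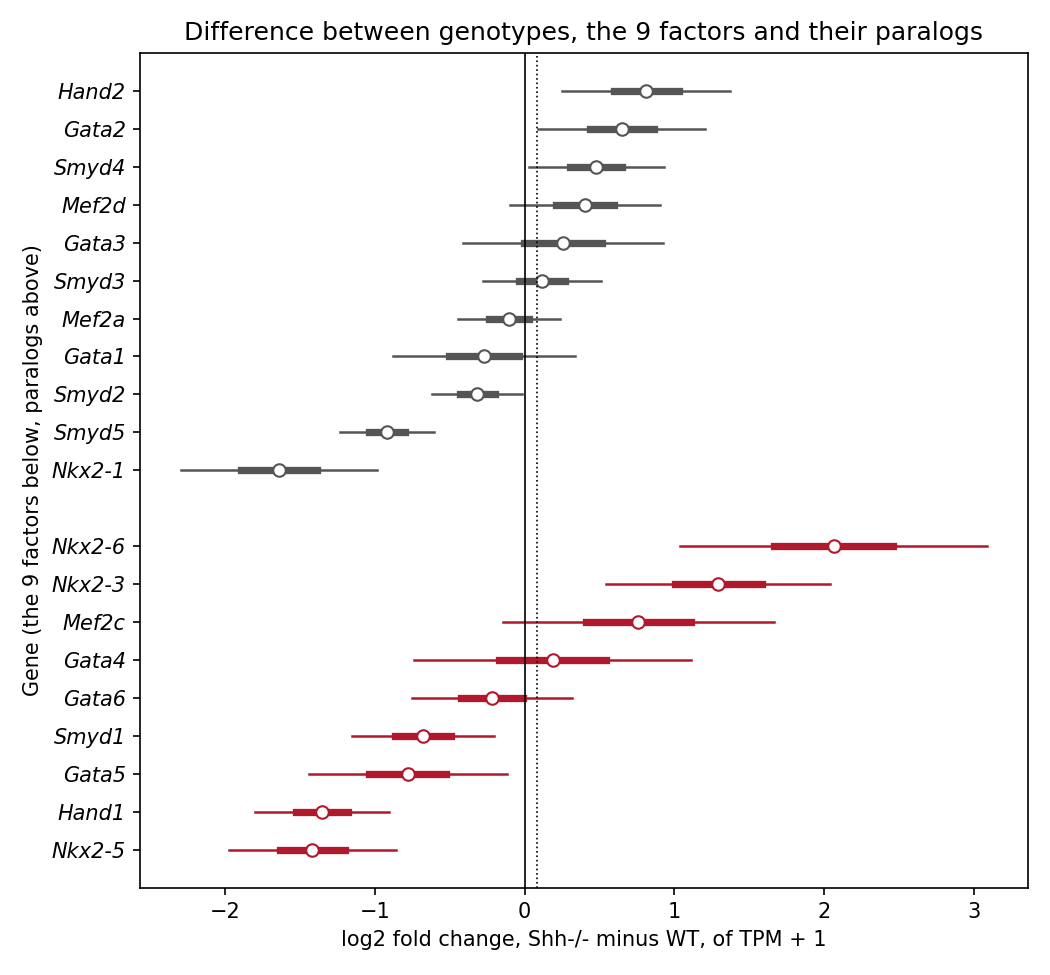
Log2 difference (Shh-/- minus WT) of the 9 factors (red) and of the 11 tested paralogs (grey), with thick bars for 1 standard error, thin bars for the 95% interval from limma, and a dotted line at the median of all tested genes, 0.08. *Nkx2-5* and *Nkx2-6* lie at the opposite ends of the 9, at −1.42 and 2.06, and *Hand1* and *Hand2* lie on opposite sides of 0.

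Other heart transcription factors and cofactors had differences in both directions. Of 31 genes in this list 28 were tested, 22 with a log2 difference above 0 and 6 below it, where 58.3% of all tested genes were above 0. The median was 0.38, against 0.08 over all tested genes, and 0.20 with GC content and length regressed out. Over the list 1 gene passed, in the higher direction. *Irx4*, a ventricle-specific homeobox gene, was at 3.96 and 1.82 against 0.163 and 0.0963 TPM (log2 difference 1.73, limma adjusted p = 0.094). The lowest values in the list belonged to *Tbx5*, which marks the posterior second heart field and lung mesoderm, at 1.22 and 4.71 TPM against 19.4 and 12.6 TPM (log2 difference −2.23, limma adjusted p = 0.106), and to *Isl1*, a second heart field and neuron gene, at 68.3 and 57.3 TPM against 93.1 and 115.7 TPM (log2 difference −0.72, limma adjusted p = 0.104). Like *Nkx2-5* and *Hand1*, both had their mutant pools below their WT pools.

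Visceral mesoderm factors were divided. Of 16 genes 15 had an entry and all 15 were tested, 4 of which, *Tbx5* and *Isl1* among them, are also on the heart list. The mutant level was above WT for 8 and below it for 7 (median log2 difference 0.10). The sign of this median turned with the settings: it was −0.01 after quantile normalization, −0.02 after median centring, −0.28 with GC content and length regressed out, −0.72 at a TPM minimum of 5 and −0.30 without WT pool 6. *Foxf2*, an HH-responsive factor of gut mesenchyme, fell by 3.67 on the log2 scale (0.241 and 1.24 TPM against 20.3 and 20.004 TPM, standard error 0.32, limma adjusted p = 0.0383). Its sister gene *Foxf1* was at 72.3 and 64.6 TPM in WT (log2 difference −3.97, limma adjusted p = 0.0976). *Tlx1*, a factor of spleen mesoderm and branchial arches, rose by 2.82 (9.97 and 9.9 TPM against 0.803 and 0.337 TPM, standard error 0.23, limma adjusted p = 0.0323). *Barx1*, the stomach and pharyngeal arch homeobox gene, was at 18.9 and 20.5 TPM against 8.23 and 5.15 TPM (log2 difference 1.46, limma adjusted p = 0.0736).

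Genes of the contractile apparatus of heart muscle, several of which are controlled by NKX2-5, GATA4 and MEF2C in the heart, differed in the opposite direction to *Nkx2-5*. Of 22 genes 15 were tested and all 15 were higher in Shh-/-, with a median log2 difference of 1.33, which became 0.62 with no filter on TPM and 1.87 with a TPM minimum of 5. The filter used the mean of all pools, so *Myl3* (0.878 and 0 TPM in WT) and *Mybpc3* (0.362 and 0.82 TPM in WT) were tested only through their mutant levels. Among the untested genes, *Ryr2* was lower in both mutant pools (0.161 and 0.398 against 0.577 and 0.661 TPM), *Actn2* overlapped and *Ttn* was higher. *Myh6* and *Myh7*, the α and β cardiac myosin heavy chains, rose: *Myh6* by 1.76 (8.10 and 7.59 TPM against 1.54 and 1.69 TPM, limma adjusted p = 0.0448) and *Myh7* by 2.13 (16.8 and 12.6 TPM against 2.79 and 2.32 TPM, limma adjusted p = 0.0422). *Tnni3*, cardiac troponin I, had the smallest difference (log2 difference 0.25, limma adjusted p = 0.379). The summed level was 216.5 and 332.8 TPM in Shh-/- and 89.0 and 99.4 TPM in WT. The atrial genes *Nppa* and *Sln* were listed at 0 in all pools, and *Myl2*, the ventricular light chain, at 0 in 3 and 0.602 TPM in the second Shh-/- pool. *Actc1* (83.6 and 99.9 against 32.6 and 41.0 TPM) and *Tnni1* (32.3 and 76.2 against 18.1 and 18.9 TPM) had the highest levels of the list in every pool. *Nkx2-5*, *Hand1* and *Smyd1*, all expressed in heart muscle, were lower in the pools in which the summed level of heart muscle genes was higher. *Mef2c* was higher in them and *Gata4* overlapped between genotypes. The part of heart muscle in the values of these factors was not tested.

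**Figure D3:**
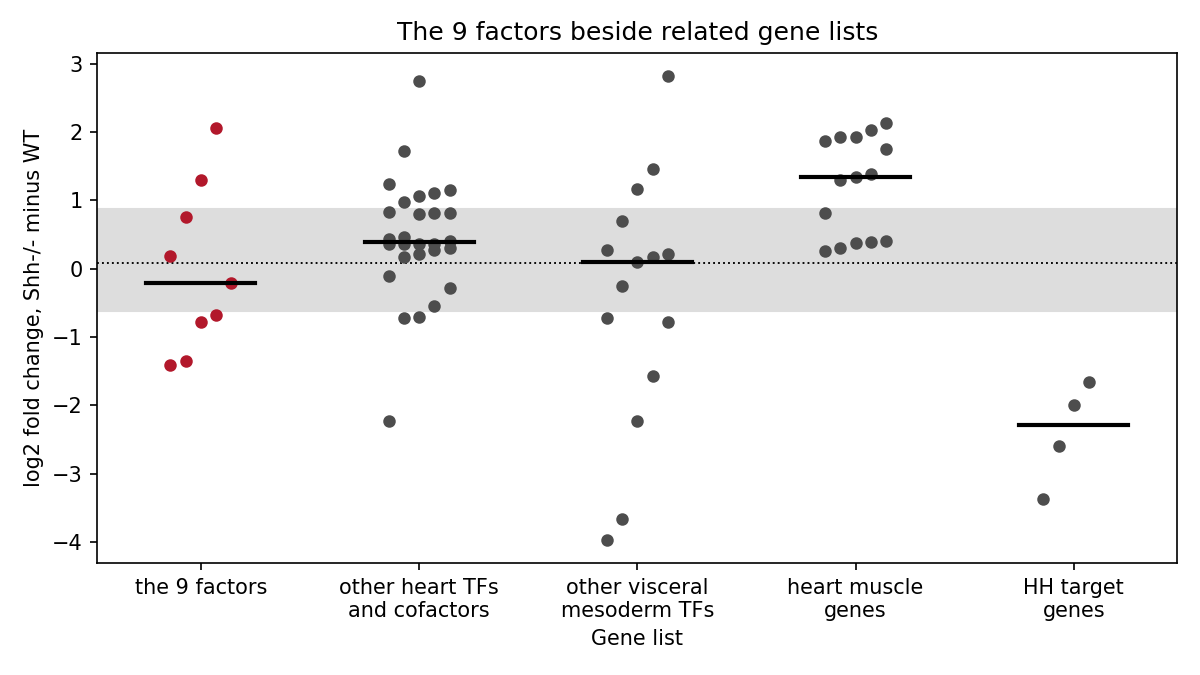
Log2 difference (Shh-/- minus WT) of the 9 factors (red) and of tested genes in 4 related lists (dark grey points, 1 per gene; thick bar, median), with the 5th to 95th percentile of all tested genes (−0.63 to 0.87) shaded and their median dotted. All 15 tested heart muscle genes lie above 0 and all 4 HH target genes below it, whereas the 9 factors lie on both sides.

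Marker genes of other cell types, some of which express these factors, also differed in level between the pools. Of 9 endothelium and endocardium genes, where *Mef2c* and *Gata5* are expressed, 8 had a log2 difference above 0 and 1 below it (median 0.73). The 8 include *Esam*, whose pools overlapped and whose log2 difference was only 7.0e-05. *Tie1* passed (log2 difference 1.17, limma adjusted p = 0.047) and the summed level was 329.3 and 373.0 TPM in Shh-/- against 233.8 and 230.8 TPM in WT. *Npr3*, an endocardial receptor, was the gene below 0. Of 8 neuron genes, a second site of *Mef2c*, 7 were higher (median 2.20) and *Isl1* was lower, 4 passed, *Stmn2* and *Tubb3* among them, and the summed level was 764.9 and 831.7 TPM against 261.6 and 221.8 TPM. Of 7 smooth muscle genes *Tagln* passed and *Myh11* overlapped between genotypes with a log2 difference of 0.01 (list median 0.68, summed level 483.0 and 462.5 TPM against 261.6 and 270.4 TPM). Only 4 of 11 skeletal muscle genes were tested, with none past the threshold (median 0.39, and 0.11 with no TPM filter, 0.14 with GC content and length regressed out and 0.21 without Shh-/- pool 1), with a summed level of 12.8 and 10.53 TPM against 7.48 and 7.72 TPM. Of 6 blood cell genes none passed, and the median of −0.33 became −0.02 without Shh-/- pool 1, where their summed level was 9165 TPM, against 14255 TPM in Shh-/- pool 2 and 12786 and 14931 TPM in WT. Of 7 neural crest genes none passed, and the summed level was 172.0 and 134.6 TPM against 136.4 and 107.2 TPM. For *Mef2c*, the first Shh-/- pool was the higher of the 2 mutant pools. The skeletal muscle, smooth muscle and neural crest sums were also higher in the first. Those of heart muscle, endothelium, neurons and blood cells were higher in the second. The part of these cell types in the values of *Mef2c*, *Gata5* and *Smyd1* was not tested.

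Genes next to the 9 were examined because reads of overlapping genes can be hard to assign. *1700092C10Rik*, which overlaps *Nkx2-6* on the other strand, was at 0.937 TPM in the first Shh-/- pool and listed at 0 in the other pools, and *Gata5os* stayed between 0.162 and 0.254 TPM. Beside *Nkx2-5*, *Bnip1* had pools of similar level in both genotypes (log2 difference −0.07, limma adjusted p = 0.713), and beside *Hand1*, *Sap30l* had a log2 difference of 0.24 (limma adjusted p = 0.286).

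The windows before the start sites of *Nkx2-3* (higher in Shh-/-) and of *Nkx2-5*, *Gata5* and *Smyd1* (lower) are shown to set the promoters of genes that differed in opposite directions beside each other. They are the 250 bases upstream of the RefSeq start in GRCm38.p6, the assembly that mm10 is built on, written 5′ to 3′ on the strand of the gene. Windows were read for 5 of the 9 genes, and none is given for *Nkx2-6*, *Gata4*, *Gata6* and *Hand1*. Capitals mark matches, on either strand, to the searched letters.
Nkx2-3, chr19:43612075-43612324, plus strand: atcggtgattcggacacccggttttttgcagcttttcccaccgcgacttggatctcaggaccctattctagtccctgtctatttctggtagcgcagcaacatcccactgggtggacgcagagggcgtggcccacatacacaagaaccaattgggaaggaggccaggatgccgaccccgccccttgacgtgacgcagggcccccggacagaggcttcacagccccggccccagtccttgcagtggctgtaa
Nkx2-5, chr17:26841566-26841815, minus strand: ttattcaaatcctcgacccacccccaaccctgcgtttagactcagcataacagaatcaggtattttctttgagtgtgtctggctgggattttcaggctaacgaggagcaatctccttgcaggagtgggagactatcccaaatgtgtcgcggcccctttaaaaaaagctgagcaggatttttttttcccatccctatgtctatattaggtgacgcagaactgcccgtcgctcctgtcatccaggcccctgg
Gata5, chr2:180334680-180334929, minus strand: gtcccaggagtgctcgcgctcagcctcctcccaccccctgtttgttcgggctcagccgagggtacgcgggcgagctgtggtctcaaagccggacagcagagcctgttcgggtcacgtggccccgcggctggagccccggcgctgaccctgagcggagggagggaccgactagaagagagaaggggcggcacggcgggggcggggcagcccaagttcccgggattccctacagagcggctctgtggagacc
Smyd1, chr6:71262282-71262531, minus strand: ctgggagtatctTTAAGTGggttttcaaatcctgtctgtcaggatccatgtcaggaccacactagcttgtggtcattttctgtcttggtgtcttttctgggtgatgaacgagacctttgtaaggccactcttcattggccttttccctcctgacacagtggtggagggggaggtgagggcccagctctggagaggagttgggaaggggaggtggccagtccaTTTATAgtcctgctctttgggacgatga

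The search covered 300 bases, including 50 after the start, of 32851 RefSeq windows. It used the GATA letters AGATA or TGATA with A or G after them (held by 29.8% of all windows), the NK2 letters TNAAGTG (11.5%), the HAND E-box CATCTG (17.2%), the TATA letters TATAAA (13.6%), the GLI letters GACCACCCA (0.253%), and the MEF2 motif (3.19%) and CArG box (1.63%) by name. The matches found did not overlap each other. *Smyd1* held 1 match to the NK2 letters starting at position −238 from the start site and 1 to the TATA letters, on the other strand, at −28. *Nkx2-3*, *Nkx2-5* and *Gata5* held none of the 7 motifs. The 3 windows of *Mef2c* held a TATA match each in 2 and an E-box match in the remaining one. No GATA, GLI, MEF2 or CArG match was found in any of the 7 windows, which says only that these letters are not in them. The *Gata5* window had 26 CpG dinucleotides and that of *Nkx2-3* 15, against a median of 7 over all windows, while *Smyd1* had 3.

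**Figure D4:**
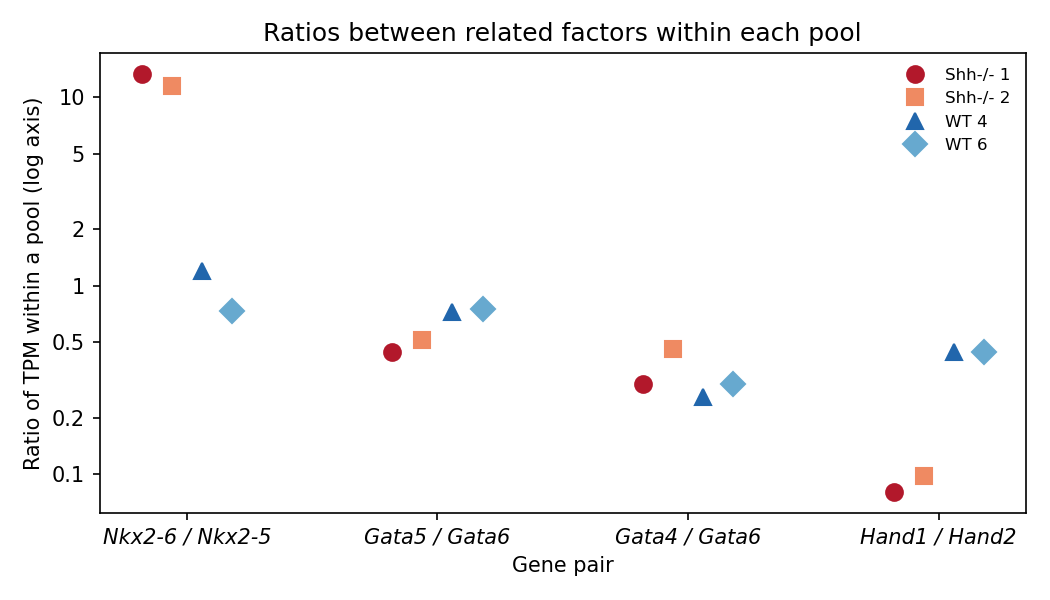
Ratio of TPM between pairs of related genes within each pool, on a log axis, with symbols as in the plot of the 9 genes by pool. *Nkx2-6* over *Nkx2-5* is 13.3 and 11.4 in the Shh-/- pools and 1.19 and 0.733 in WT, *Gata5* over *Gata6* and *Hand1* over *Hand2* are lower in both Shh-/- pools, and *Gata4* over *Gata6* is nearly equal in Shh-/- pool 1 (0.303) and WT pool 6 (0.301).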

How the data were processed

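RNA was prepared by the authors from 4 pools of 3 larynxes (200 to 310 ng RNA, RNA integrity numbers 7.7 to 9), poly(A)-selected and sequenced single-end from stranded libraries. Reads were aligned to mm10 with HISAT2 2.1.0 and assembled with StringTie 1.3.6, and the annotation release is not given in the sources used here. The deposited tables list 46983 genes with coverage (a signal of mean read depth, not normalized), FPKM as the authors scaled it to aligned bases, and TPM, which the authors scaled to a fixed total per library. No read counts were used. The sources used here give no read length; 75 nt is the commonest number of covered bases among low genes with 1 transcript in all 4 libraries. A 0 can be a failed estimate, since all 37 mitochondrial genes are listed at 0.

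TPM was summed per gene ID. Genes whose mean over the pools reached 1 TPM were fitted as log2(TPM + 1) in limma 3.58.1 (R 4.3.3; lmFit, eBayes with trend), 2 Shh-/- against 2 WT pools with no covariate, Benjamini-Hochberg adjustment over all 16972 genes and two-sided tests at 0.05. TPM holds no counts, so precision is the spread between pools. Members and lists were chosen with earlier results of these data known. Named are the 9 genes, *Shh*, the HH targets, overlapping and nearest genes, paralogs, and of each list the genes past the threshold (at most 4) and the 2 highest and 2 lowest. *Cdx2*, *Nppa*, *Sln* and *Myl2*, as markers near 0, were added after their values were seen. So were the heart muscle genes *Actc1*, *Actn2*, *Mybpc3*, *Ryr2*, *Tnni1* and *Ttn*. Some genes that this rule names are not reported here. *Mrtfa*, *Mrtfb*, *Mymk* and *Bapx1* had no entry under these symbols. GC content and length came from GENCODE M21 (46488 IDs matched). The scripts were tested on simulated data. Alternatives were another pseudocount (0.1), TPM filter, scaling, FPKM, variance model or threshold, the correction for GC content and length (splines with 5 degrees of freedom), and each pool left out.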

Additional observations from a re-analysis of the deposited data

How the results depend on the processing

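In place of 123 genes, limma called 69 with a pseudocount of 0.1, 69 with GC content and transcript length regressed out, 858 at an adjusted p under 0.10 and 0 with no filter on TPM, where 28524 genes were tested and 5011 had an unadjusted p under 0.05. With 1 pool left out it called 0 to 16 genes, the 16 (4 higher and 12 lower) without WT pool 6, where the remaining WT pool is assumed to vary like the others and fewer samples are fitted. Of the 9 factors, 0 passed in the reported test, 1 after quantile normalization (*Hand1*), 2 after median centring (*Hand1* and *Nkx2-5*), 1 with GC content and length regressed out (*Hand1*), 3 at an adjusted p under 0.10 and 0 to 0 with 1 pool left out. For 7 of the 9 genes the sign held under all alternatives that tested them, *Nkx2-3* being left out by a TPM minimum of 5. The exceptions were *Gata4*, at −0.022 with GC content and length regressed out and from −0.32 to 0.69 with 1 pool left out, and *Gata6*, from −0.47 to 0.041 with 1 pool left out; the cause was not tested. The log2 difference with 1 pool left out ran from −1.62 to −1.21 for *Nkx2-5*, 1.53 to 2.60 for *Nkx2-6* and −1.48 to −1.22 for *Hand1*. No paired analysis was possible because the groups share no replicate number.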

Other observations

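Signals that act on heart precursors were listed beside the factors. Of 10 ligand genes of the BMP, FGF and WNT families 9 were tested, 3 above and 6 below WT in the mutant (median log2 difference −0.35, and −0.13 at a TPM minimum of 5, −0.18 with GC content and length regressed out and −0.21 without Shh-/- pool 1), and none passed an adjusted p of 0.05 in limma. *Fgf8*, made by pharyngeal endoderm and mesoderm and needed by the anterior heart field, was at 17.7 and 10.4 TPM in mutant larynx versus 5.24 and 1.16 TPM in WT (log2 difference 1.99, standard error 0.56, limma adjusted p = 0.138). *Bmp4* was at 63.9 and 54.1 TPM against 37.7 and 38.2 TPM (log2 difference 0.62, limma adjusted p = 0.0987). The lowest values belonged to *Wnt2*, a ligand of lung and posterior heart mesoderm, at 0.604 and 5.04 TPM against 8.37 and 6.58 TPM (log2 difference −1.44, limma adjusted p = 0.241), and to *Wnt11*, at 3.19 and 5.33 TPM against 11.9 and 9.73 TPM (log2 difference −1.19, limma adjusted p = 0.104). *Bmp10*, a ligand of heart muscle (named after its value was seen), was listed at 0 or under 1 TPM in every pool.

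*Wnt2*, *Tbx5*, *Foxf1* and *Aldh1a2*, which are expressed together in mesoderm around the posterior foregut, had the same order in the Shh-/- pools, the first being the lower in each. The 9 factors were divided. *Gata4*, *Gata5*, *Gata6* and *Smyd1* had this order too. *Nkx2-3*, *Nkx2-6*, *Mef2c*, *Hand1* (6.67 and 5.42 TPM) and *Nkx2-5* (5.97 and 4.73 TPM) had the opposite order.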
